A study of Mus musculus with 14 samples.

Results

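Baseline gene expression of the wild-type mouse mammary gland was described from the 3 of 14 arrays in the series that carried RNA of wild-type tissue. These 3 samples were taken by their titles and serve in the study as controls for MMTV-neu transgenic mice; arrays of transgenic tissue enter only the floor on low intensities, set over the whole table, and the alternative fits that take their spread from other arrays. Each sample was total RNA from the mammary glands of 5 mice, pooled and hybridised to 1 array, so the 3 pools stand for 15 mice and the spread among mice within a pool was not measured. Pools 41 and 42 came from mice of 41 weeks, whose background was 97% FVB and 3% CF-1. Pool 40 came from mice of 31 weeks, whose background was 87.5% FVB and 12.5% CF-1. The labels also put pools 41 and 42 on arrays of 1 lot and pool 40 on an array of another, so that age, share of CF-1 background and array lot cannot be told apart between the 41-week pools and the 31-week pool. They give no reproductive history for the mice.

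The adult mammary gland is a branching epithelium of luminal and myoepithelial cells set in a pad of white fat, with fibroblasts, blood vessels, nerves and immune cells between them. Luminal cells make milk proteins in response to prolactin, which acts through the transcription factor STAT5, and myoepithelial cells contract to eject the milk. Most of the volume of a gland outside pregnancy and lactation is adipose tissue, and a flank or abdominal gland lies against skin, lymph node and body-wall muscle.

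The arrays measured 12422 probe sets beside the control probe sets, and 8251 genes were named by at least 1 of them, each represented here by its brightest probe set. Values are intensities as deposited, on a linear scale that was set to the same trimmed mean on every array. An intensity depends on the probes as well as on the amount of RNA: over the 2073 genes with several probe sets, the brightest was a median of 3.90 times the dimmest, and at least 10 times in 26.3% of them. The order of genes given here is therefore an order of intensities, and firm comparisons are those of 1 gene between pools. Before logarithms were taken, intensities under 101.42 were raised to it, a minimum at the 20th percentile of the whole table that is called the floor below. In pooled tissue, fewer cells of a type and less RNA per cell cannot be told apart.

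Pool 42 stood apart from the others in its control probe sets. The 9 probe sets for the bacterial and phage transcripts used as hybridisation controls (BioB, BioC, BioDn and CreX) read 2.52 to 4.24 times as high in pool 42 as in pool 41, and 2.27 to 4.26 times as high as in pool 40, whereas pool 41 read 0.769 to 1.02 times pool 40. The ratio of the 3' to the 5' probe set, which rises when transcripts are degraded or copied incompletely, was 1.08 and 2.78 for Gapdh in pools 41 and 42, against 1.13 in pool 40. For actin it was 1.87 and 2.86 in pools 41 and 42, against 2.14 in pool 40. For pyruvate carboxylase it was 44.3 and 159 in pools 41 and 42, against 24.03 in pool 40. The part of these array differences in the results below was not tested, and medians between the ages are given with and without pool 42.

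**Figure D1:**
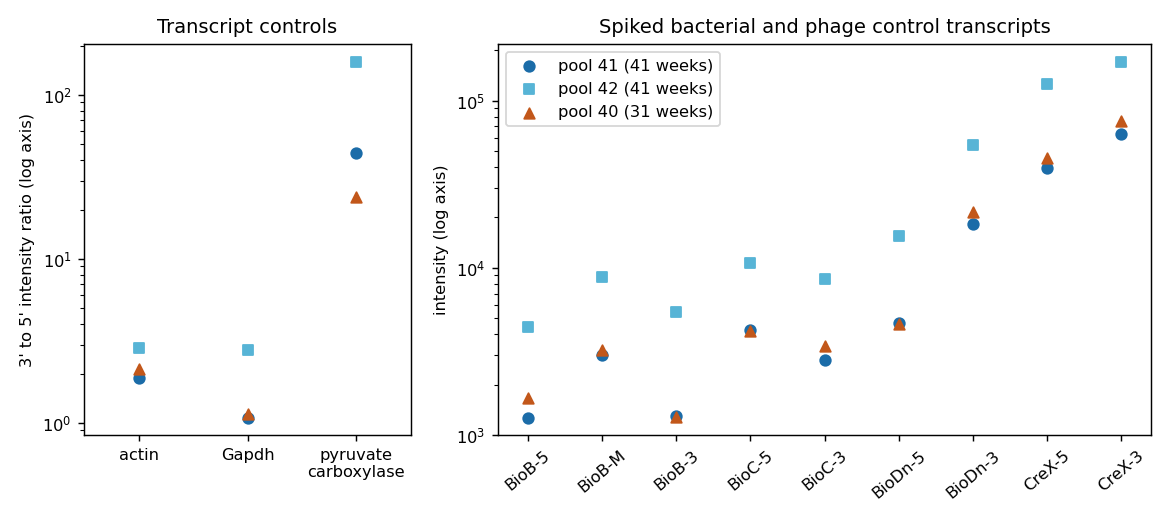
Left, 3' to 5' intensity ratio of 3 transcripts on each wild-type array, and right, intensity of the 9 hybridisation control probe sets, both on log axes, with 1 point per pool. Pool 42 is the highest for every control shown, and for the spiked transcripts pool 41 lies at 0.769 to 1.02 times pool 40.

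The 30 brightest genes were a mixture of fat, milk, protein synthesis, antigen presentation and blood transcripts. They spanned geometric means over the 3 pools of 50859 to 128497, against 895 for the median gene, and the 100 brightest genes held 20.9% to 25.7% of the summed intensity of an array. The first gene outside the 30, the MHC class I light chain B2m, stood at 49869, so no gap marks the end of this group. Of the 30 genes, 25 were among the 30 brightest of every pool, and 87 of the 100 brightest were shared in the same way.

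Scd1, the desaturase that makes monounsaturated fatty acids, was the brightest gene, at 106790.1 and 187377 in pools 41 and 42, against 106032 in pool 40. The SD of its log2 intensity was 0.47 (n = 3 pools), with pools 41 and 40 nearly equal and pool 42 above both. Fasn, the multifunctional enzyme of fatty acid synthesis, stood at 51281 and 87462 in pools 41 and 42, against 51560.2 in pool 40. It showed the same arrangement of the pools. The adipokine gene Adipoq, which is restricted to fat cells, read 59326 and 90704 in pools 41 and 42, against 65733 in pool 40. Car3, a carbonic anhydrase abundant in mouse fat, read 63138 and 75961 in pools 41 and 42, against 63117 in pool 40. Pnpla2, the lipase that starts the breakdown of stored triglyceride, read 52736 and 58614 in pools 41 and 42, against 48525 in pool 40. These last 2 genes were among the steadiest of the 30, with 1.20-fold and 1.21-fold between their highest and lowest pool.

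Of milk protein genes, Csn1s1, encoding alpha-S1 casein, was the fourth brightest of all named genes, at 94024 and 140644 in pools 41 and 42, against 98685 in pool 40. Protein synthesis contributed the largest block of the 30, with Rpl41 and Eef1a1 next to Scd1 at the top and 9 further ribosomal proteins named Rps or Rpl. Eef1a1, which delivers aminoacyl-tRNA to the ribosome, read 100130.3 and 147655 in pools 41 and 42, against 97533 in pool 40. Probe sets named for the MHC class I genes H2-D1, H2-K1 and H2-K2 were all in the group. They belong to the kind that can detect several members of 1 family, so their reads are not separate measurements. H2-D1 read 79868 and 90133 in pools 41 and 42, against 66537 in pool 40.

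Only 2 of the 30 genes differed at least 2-fold between pools, and both belong to blood or blood-derived cells. Hba-a1, encoding alpha globin, read 61521 and 102499 in pools 41 and 42, against 50061 in pool 40. Igkv6-23, a variable segment of the immunoglobulin kappa light chain measured by a family probe set, read 48764 and 86904 in pools 41 and 42, against 33328 in pool 40. Both genes had the order pool 42, pool 41, pool 40. For the other 28 genes the highest pool was less than 2-fold above the lowest, and 22 of the 30 stayed under 1.5-fold.

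All 30 genes were highest in pool 42, where 33.7% of the 5726 genes past the filter on low values were highest in that pool. With the 3 arrays forced to the same distribution by quantile normalization, 11 of the 30 were highest in pool 42, 10 in pool 41 and 9 in pool 40. That normalization gives equal ranks equal values, so it takes away any excess shared by the brightest genes of 1 array and does not test it.

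**Figure D2:**
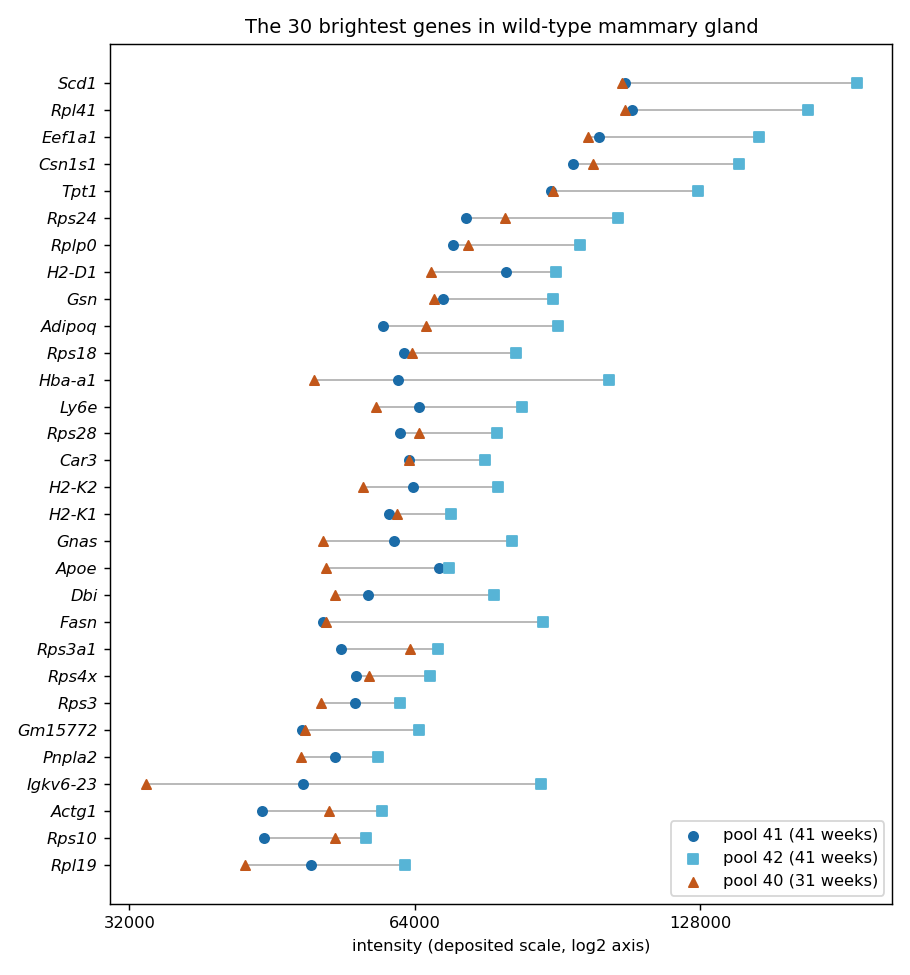
Intensity of the 30 genes with the highest geometric mean in the 3 wild-type pools, on a log2 axis, with 1 point per pool and a line from the lowest to the highest pool. Pool 42 is the highest point on every row, and Hba-a1 and Igkv6-23 have the longest lines, at 2.05-fold and 2.61-fold.

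Genes of white fat cells had the highest median level of any cell type list. All 22 measured members of a list of white adipocyte genes lay above the median gene, their median was at percentile 97.4 of all named genes, and 8 of them were among the 100 brightest. Beside Adipoq, Car3 and Pnpla2, these included Lpl, the lipase that releases fatty acids from lipoproteins, at 42238 and 55707 in pools 41 and 42, against 38649 in pool 40. Cebpa, a transcription factor of fat cell differentiation, read 44934 and 44500.0 in pools 41 and 42, against 36839.5 in pool 40. The highest and lowest pools of these genes differed 1.44-fold and 1.22-fold. Retn, encoding the adipokine resistin, read 34516 and 47509.8 in pools 41 and 42, against 27325 in pool 40. Lep, encoding leptin, read 22194 and 23838 in pools 41 and 42, against 8257 in pool 40. Both 41-week pools were well above the 31-week pool for Lep and above it for Retn. The lowest member was Aqp7, a glycerol channel, at 1059.8 and 1178 in pools 41 and 42, against 832 in pool 40. Fabp4, a fatty acid binding protein abundant in fat, read 2398 and 3892 in pools 41 and 42, against 3423 in pool 40, at percentile 82. The defining marker Plin1 had no named probe set.

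Genes of fatty acid and triglyceride synthesis stood as high, with 14 of 14 measured members past the filter, a median at percentile 98.2 and 5 among the 100 brightest. Thrsp, a nuclear protein that follows lipogenesis, read 36159.6 and 63007 in pools 41 and 42, against 38988 in pool 40. Acly, which makes cytosolic acetyl-CoA from citrate, read 29800.3 and 54593 in pools 41 and 42, against 23761 in pool 40. Of the 14 genes, 12 were highest in pool 42 and none in pool 41, against backgrounds of 33.7% and 29.6% of genes. The median difference of pool 42 minus pool 41 was 0.35 on the log2 scale as deposited and 0.22 after quantile normalization, where 11 of 14 were highest in pool 42. Both pools are of the same age, background and array lot.

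Of genes of brown fat, 3 were bright in a list that otherwise lay low or near the middle. Ucp1, the uncoupling protein that defines brown and beige fat, read 15889.9 and 6571 in pools 41 and 42, against 9009.7 in pool 40. Cidea, a lipid droplet protein, read 9882 and 6757 in pools 41 and 42, against 8514 in pool 40. The muscle and brown fat cytochrome oxidase subunit Cox8b read 10347 and 7728 in pools 41 and 42, against 6519.9 in pool 40. All 3 were highest in pool 41, as were 5 of the 6 members past the filter, where 29.6% of all genes were. For Ucp1 the same-age pools 41 and 42 lay on either side of pool 40 and differed 2.42-fold. Of the other measured members, Cox7a1 lay above the median gene and 4, among them Dio2 and Ppargc1a, below it, and the median percentile of the list was 50.3.

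**Figure D3:**
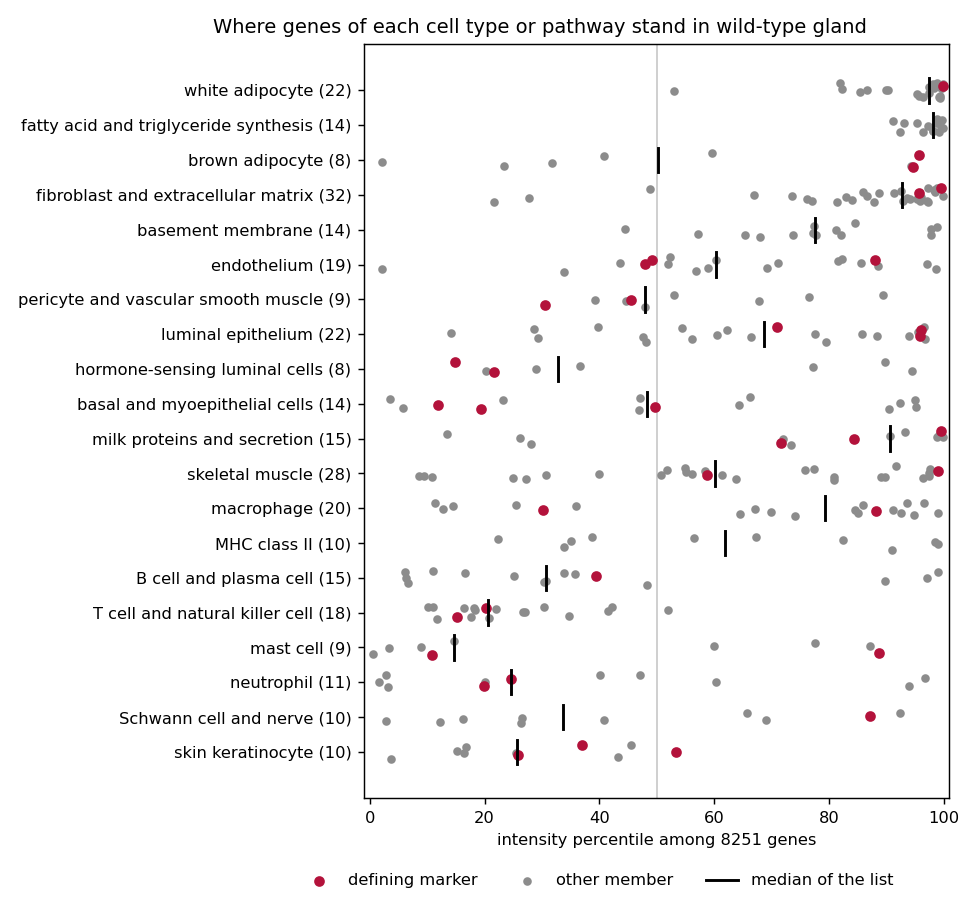
Position of the measured genes of 20 lists among 8251 named genes ranked by geometric mean intensity over the 3 wild-type pools, with defining markers in red, other members in grey and the median of each list as a black bar. The number measured stands beside each list. White adipocyte and fatty acid synthesis genes crowd at the right, with medians at 97.4 and 98.2, while T cell, neutrophil and mast cell genes have medians of 20.5, 24.5 and 14.6.

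Milk protein transcripts were abundant in glands of mice for which the labels state no pregnancy or lactation. Of 15 measured genes of milk proteins and secretion, 12 passed the filter and 6 were among the 100 brightest. Csn2, encoding beta-casein, read 43308 and 61736 in pools 41 and 42, against 41476 in pool 40. Csn1s2a, encoding an alpha-S2 casein, read 52681 and 45263 in pools 41 and 42, against 33283 in pool 40. Csn3, encoding the kappa-casein that holds casein micelles in solution, read 35406 and 36274 in pools 41 and 42, against 28269.7 in pool 40. These caseins and Csn1s1 stayed within 1.58-fold between pools, and only Csn1s2a and Csn3 had both 41-week pools clear of the 31-week pool by more than the gap between the 41-week pools. Mfge8, a protein of the milk fat globule that also marks apoptotic cells for uptake, read 48436 and 42299 in pools 41 and 42, against 50523 in pool 40. Plin2, which coats lipid droplets, read 25372 and 23532 in pools 41 and 42, against 26201 in pool 40. Both were slightly lower in the 41-week pools.

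Whey and secretory genes were dimmer and differed more. Wap, encoding whey acidic protein, read 5926 and 2695 in pools 41 and 42, against 542 in pool 40, which was the widest range of any milk gene at 10.9-fold. Lalba, encoding the alpha-lactalbumin that directs lactose synthesis, read 5805 and 2609.5 in pools 41 and 42, against 3138 in pool 40. Btn1a1, a butyrophilin needed for secretion of milk fat droplets, read 8489 and 4445 in pools 41 and 42, against 4439 in pool 40. Glycam1, a mucin-like protein of milk whey, read 3303 and 1806 in pools 41 and 42, against 1511 in pool 40. For these 4 genes pool 41 was the highest. Lalba in pool 42 lay below pool 40, so its 41-week and 31-week pools overlapped. The enzyme Xdh, the phosphate transporter Slc34a2 and the casein Csn1s2b did not pass the filter.

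The promoters of the 2 brightest caseins are shown because the pathway that drives them, prolactin and STAT5, has a DNA motif that can be read in the sequence. STAT dimers bind TTCNNNGAA, a palindrome that reads the same on both strands. In RefSeq promoters (GRCm38.p6, 250 bases before to 50 bases after the start site), the letters TTCNNNGAA occurred in 4 of the 10 milk list genes with at least 1 promoter in the table (Csn1s1, Csn2, Csn1s2a and Glycam1), and in 9.55% of the 27025 genes of the table. A match describes the letters and is not evidence of binding. In Csn1s1 (chr5:87665958-87666257, + strand) the match began 100 bases before the start site, and in Csn2 (chr5:87699376-87699675, - strand) it began 93 bases before it. The promoter of Wap held no such match. Capitals mark the motif.
Csn1s1: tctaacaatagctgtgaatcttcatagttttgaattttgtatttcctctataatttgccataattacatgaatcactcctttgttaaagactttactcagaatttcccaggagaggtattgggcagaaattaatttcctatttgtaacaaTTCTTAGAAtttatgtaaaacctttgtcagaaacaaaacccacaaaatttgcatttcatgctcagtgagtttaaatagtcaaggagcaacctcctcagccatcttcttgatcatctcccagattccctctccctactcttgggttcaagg
Csn2: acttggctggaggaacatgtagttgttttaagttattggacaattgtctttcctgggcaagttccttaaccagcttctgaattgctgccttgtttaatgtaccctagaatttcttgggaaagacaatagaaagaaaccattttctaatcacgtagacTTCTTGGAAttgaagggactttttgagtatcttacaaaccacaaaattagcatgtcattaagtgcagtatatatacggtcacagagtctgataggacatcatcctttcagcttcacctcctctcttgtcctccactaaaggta

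Luminal epithelial genes lay at moderate levels. Of 22 measured luminal genes 19 passed the filter, and their median percentile was 68.7. The keratin of simple epithelia Krt8 read 9583 and 11110.5 in pools 41 and 42, against 8962 in pool 40. Its partner Krt18 read 8833 and 10004 in pools 41 and 42, against 12094 in pool 40. The adhesion molecule Epcam read 1622 and 1827 in pools 41 and 42, against 2710.1 in pool 40. Elf5, a transcription factor of the milk-producing luminal lineage, read 10557 and 7405 in pools 41 and 42, against 10674 in pool 40. These markers did not move together: Krt18 and Epcam were lower in both 41-week pools than in the 31-week pool, whereas Krt8 was higher in both.

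Of hormone-sensing luminal genes, the defining receptors were dim and partly under the floor. Esr1, encoding estrogen receptor alpha, read 197 and 368 in pools 41 and 42, against 77.4 in pool 40. Pgr, encoding the progesterone receptor, read 256 and 47.7 in pools 41 and 42, against 59.3 in pool 40. With a pool under the floor for each, no difference between pools is given for them. Prlr had no named probe set. Stat5a was bright, at 7612 and 8688 in pools 41 and 42, against 8123 in pool 40. The hormone-sensing marker Cited1 read 4494 and 4663 in pools 41 and 42, against 6563 in pool 40, and the estrogen receptor cofactor Foxa1 read 2188 and 2874 in pools 41 and 42, against 2716 in pool 40. Stat5a is also used by other luminal cells.

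Myoepithelial cells were represented unevenly. The smooth muscle actin gene Acta2 read 8539 and 9516 in pools 41 and 42, against 9087 in pool 40. Mylk, the kinase that starts smooth muscle contraction, read 6544 and 6437 in pools 41 and 42, against 6569.5 in pool 40. Both were bright and steady, with 1.11-fold and 1.02-fold between highest and lowest pool. Both are also expressed by the smooth muscle of vessels. The basal keratins were dim, with Krt14 at 227 and 214 in pools 41 and 42, against 71.2 in pool 40. Krt5 read 83.7 and 73.8 in pools 41 and 42, against 175 in pool 40. Trp63, encoding the basal transcription factor p63, read 937 and 839 in pools 41 and 42, against 866 in pool 40. Low readings of these keratins say that their probe sets gave little signal in these pools. A level of the RNA cannot be drawn from them.

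Connective tissue stood next to fat among cell types by its median level. Of 32 measured fibroblast and extracellular matrix genes 30 passed the filter, with a median at percentile 92.8. Dcn, encoding decorin, which binds collagen fibrils, read 42088 and 50856 in pools 41 and 42, against 40728 in pool 40. Pdgfra, a receptor that marks fibroblasts, read 9064 and 8395 in pools 41 and 42, against 12036 in pool 40. Col1a1, a chain of the fibril collagen type I, read 18770.3 and 23829 in pools 41 and 42, against 18631 in pool 40. None of the 30 matrix genes differed 2-fold between pools, where 8.26% of all genes did. Most matrix genes are bright, and among probe sets in the brightest of 5 equal intensity bins only 2.41% did. The count is therefore not read as a steadiness particular to matrix genes. Basement membrane genes, which include collagen IV and the laminins, lay at a median percentile of 77.5, led by Sparc and Col4a1.

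Endothelial genes were at a median percentile of 60.4, led by the caveolae protein Cav1 at 18306 and 25685 in pools 41 and 42, against 19675 in pool 40. RNA of whole gland does not tell which cells made it, so the Cav1 signal is not assigned to endothelium alone. The TGF-beta co-receptor Eng read 12497 and 15590.4 in pools 41 and 42, against 10988 in pool 40. The vascular cadherin Cdh5 read 5488 and 4803 in pools 41 and 42, against 3489 in pool 40. The other defining markers Pecam1 and Kdr were dimmer. The adhesion molecule Pecam1 read 809 and 989 in pools 41 and 42, against 807 in pool 40, and the VEGF receptor Kdr read 887 and 776 in pools 41 and 42, against 805 in pool 40. Lymphatic Prox1 was under the floor in all pools.

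Among immune cells, macrophages had the highest median level. The macrophage list had a median percentile of 79.3, and Lyz2, encoding lysozyme, read 10939 and 12953 in pools 41 and 42, against 10589 in pool 40. The receptor Csf1r, which macrophages need to survive, read 3678 and 5872 in pools 41 and 42, against 4466 in pool 40. Adgre1, encoding the surface marker F4/80, was dim, at 554 and 139.5 in pools 41 and 42, against 518 in pool 40. Cd74, the invariant chain of MHC class II, was bright, at 30916 and 30316 in pools 41 and 42, against 25429.6 in pool 40. The B cell and plasma cell list had a median percentile of 30.8, with 3 of 15 measured members above the median gene. Of these, Igha, the heavy chain of immunoglobulin A, read 28907 and 39768 in pools 41 and 42, against 20423 in pool 40. Ighm, the chain of immunoglobulin M, read 15425 and 15532 in pools 41 and 42, against 9078 in pool 40. The B cell receptor component Cd79a read only 703 and 309.5 in pools 41 and 42, against 787 in pool 40. T cell genes were dim, with a median percentile of 20.5 for the T and natural killer cell list. Cd3e, a chain of the T cell receptor complex, read 106 and 110.5 in pools 41 and 42, against 235 in pool 40.

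Mast cell proteases Cma1 and Tpsb2 were measured well above the median gene. Cma1, a chymase, read 5331 and 5192 in pools 41 and 42, against 3831 in pool 40. Tpsb2, a tryptase, read 4226 and 4639.7 in pools 41 and 42, against 3919 in pool 40. The other mast cell markers were mixed, with the carboxypeptidase Cpa3 at 1069.8 and 1999 in pools 41 and 42, against 1089 in pool 40. Mcpt4, another chymase, read 53.3 and 37.5 in pools 41 and 42, against 155 in pool 40. Neutrophil markers S100a8 and Mpo were dim, with S100a8 at 182 and 306 in pools 41 and 42, against 241 in pool 40. The bright members of that list, Lcn2 and Ltf, are also made by luminal cells. Sox10, a transcription factor of Schwann cells and of some mammary epithelial cells, read 4148 and 4122 in pools 41 and 42, against 4499 in pool 40. The Schwann cell and nerve list had a median percentile of 33.7, with 4 of 10 measured members above the median gene. Keratinocyte genes of skin were mostly dim, with a median percentile of 25.6 and 1 of 10 above the median gene. Krt10, a keratin of the upper epidermis, read 387 and 439.5 in pools 41 and 42, against 709 in pool 40.

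Skeletal muscle genes were part of the wild-type gland signal. Acta1, the actin of skeletal muscle, read 22099 and 23456 in pools 41 and 42, against 41067 in pool 40. Myl1, a fast myosin light chain, read 13189 and 9665 in pools 41 and 42, against 21768 in pool 40. For both genes the 41-week pools lay below the 31-week pool. The calcium pump Atp2a1 read 11260.2 and 10669 in pools 41 and 42, against 22013 in pool 40. Ckm, the muscle creatine kinase, read 851 and 1199 in pools 41 and 42, against 1994 in pool 40. Here too both 41-week pools lay below the 31-week pool. Of 28 measured members, 23 passed the filter. Of these 23, 22 were lower in both 41-week pools, where 36.7% of all genes were, and 7 had a mean difference of at least 2-fold with both pools lower, where 1.12% of genes did. Tnni1, a troponin of slow fibres, was the exception, at 749 and 1327 in pools 41 and 42, against 1305 in pool 40.

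The summed intensity of the 28 muscle genes was 97544 and 98480 in pools 41 and 42, against 181703 in pool 40. Their median difference, 41-week minus 31-week, was -0.89 on the log2 scale, against -0.02 for all genes. It was -0.96 without pool 42 and -0.80 without pool 41. After quantile normalization 22 of 23 were lower in both 41-week pools. No muscle probe set passed limma's test described below, in which the smallest adjusted p was 0.0853, for Tnnc2, the fast troponin C gene, with a difference of -1.21 ± 0.21 (SE). By an exact permutation test, 2 pools against 1 cannot give a p below 0.333, or below 0.667 if it is doubled for 2 sides. No single gene can therefore be called in this way.

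The promoter of Acta1 is shown because actin and myosin promoters are known for a CArG box, the motif of serum response factor. A CArG box was found on either strand, overlapping TTCNNNGAA in no promoter of the table, in 4 of the 24 muscle list genes with a promoter in the table (Acta1, Myh4, Myl3 and Ldb3), and in 1.81% of the 27025 genes. In Acta1 (chr8:123894726-123895025, - strand) the box began 73 bases before the start site. The capitals mark the box.
Acta1: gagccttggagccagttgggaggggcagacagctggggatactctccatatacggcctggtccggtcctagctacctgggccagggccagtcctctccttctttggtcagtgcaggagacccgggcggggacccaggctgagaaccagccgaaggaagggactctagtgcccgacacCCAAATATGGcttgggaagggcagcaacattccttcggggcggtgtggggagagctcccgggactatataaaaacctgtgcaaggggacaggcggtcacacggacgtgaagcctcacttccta

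Spread between the pools depended on intensity. Of 7453 probe sets past a filter that kept those whose mean log2 intensity exceeded the 40th percentile, 735 (9.86%) differed at least 2-fold between the highest and lowest pool, and the median SD of log2 intensity was 0.23 (n = 3 pools). When these probe sets were divided by intensity into 5 equal bins, 2.41% did so in the brightest bin and 24.9% in the dimmest. Pools 41 and 42 differed at least 2-fold for 362 probe sets (4.86%), pools 41 and 40 for 321 (4.31%), and pools 42 and 40 for 399 (5.35%). The same-age pair on 1 array lot thus differed for more probe sets than pool 41 did from the 31-week pool.

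**Figure D4:**
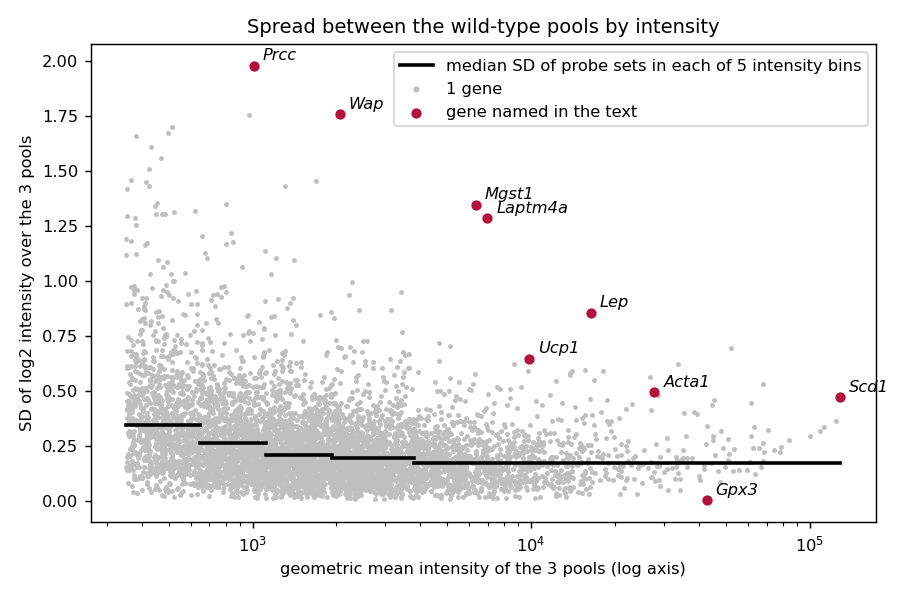
SD of log2 intensity over the 3 wild-type pools against the geometric mean intensity, on a log axis, for each of 5726 genes past the filter, with black bars for the median SD of probe sets in each of 5 bins of intensity. The bars run from 0.34 in the dimmest bin to 0.17 in the brightest, and Prcc, Wap, Mgst1 and Laptm4a lie far above them.

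Between the 2 pools of 41 weeks, the named genes with the largest differences were mostly of low intensity, such as Cln8, a membrane protein of the endoplasmic reticulum, at 1112, 132 and 847 in pools 41, 42 and 40. Notch4, an endothelial Notch receptor, was brighter, at 3914, 554 and 2245 in pools 41, 42 and 40. The brightest of these 10 genes was Laptm4a, a lysosomal membrane protein, at 18549, 3258 and 5589 in pools 41, 42 and 40, which differed 5.69-fold between its highest and lowest pool. Npr3, the clearance receptor for natriuretic peptides, read 7051, 2902 and 1955 in pools 41, 42 and 40. At the other end, Gpx3, an extracellular glutathione peroxidase, had the smallest range of the genes above the median of every array, at 42612, 42662 and 42665 in pools 41, 42 and 40.

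Against the 31-week pool, 11 of 7453 probe sets (0.148%) were called in the 41-week pools by limma's moderated test at a Benjamini-Hochberg adjusted p under 0.05, with 9 higher and 2 lower. In 1 simulated data set, with normal noise at the fitted spread of each probe set, the test made false calls at more than its nominal rate. Its adjusted p-values are therefore not to be taken at face value. This fit rests on 1 residual degree of freedom: its errors come from the gap between the 2 pools of 41 weeks and from a prior over all probe sets, and it assumes that the lone 31-week pool varies like the 41-week pools. Under that assumption the whey protein gene Wap was called higher, by 2.88 ± 0.39 (SE, log2 scale), with an adjusted p of 0.0427. Its values were given above, and both 41-week pools lay above the 31-week pool. Lep was called higher in both of its probe sets, by 1.48 ± 0.22 and 1.41 ± 0.22, with adjusted p of 0.0454 each. Scx, encoding the tendon transcription factor scleraxis, read 2025 and 2649 in pools 41 and 42, against 422 in pool 40, and was called higher by 2.46 ± 0.31 (adjusted p = 0.0353).

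The same fit called Mgst1, a microsomal glutathione transferase, lower, at 2784 and 5207 in pools 41 and 42, against 17448 in pool 40, a log2 difference of -2.20 ± 0.32 (adjusted p = 0.0427). H2-Q10, an MHC class I-like gene known for its liver expression, read 381 and 624 in pools 41 and 42, against 3838 in pool 40, with a difference of -2.98 ± 0.38 (adjusted p = 0.0353). Prcc read 1530.0 and 3083 in pools 41 and 42, against 218 in pool 40, a difference of 3.31 ± 0.43 (adjusted p = 0.0353), and the difference for Igkv6-14 was 1.501 ± 0.218 (adjusted p = 0.0427). The probe sets of H2-Q10 and Igkv6-14 are of kinds that can detect several related transcripts, so these calls are not tied to 1 gene. That of Prcc is of a kind that did not meet all rules of probe selection. The remaining 3 calls were family probe sets with no gene named in the annotation. Taking the spread from all 14 arrays left no probe set called, and so did quantile normalization, a filter at the 60th percentile and a fit with no intensity trend. With no filter, none of the 11 was among the probe sets called. With pool 41 or pool 42 left out, 1 pool stands against 1, so a test must borrow its spread from the other arrays of the series. That fit also called none, as did the 14-array fit before any pool was left out.

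Other lists had smaller median differences between the ages than muscle genes. Of 25 cell cycle genes past the filter, 16 were lower in both 41-week pools and 3 higher, with backgrounds of 36.7% and 33.7%, and the median difference was -0.41. For example, the proliferation marker Mki67 read 1171 and 1234 in pools 41 and 42, against 1798 in pool 40. Top2a, which untangles chromosomes, read 426 and 594 in pools 41 and 42, against 787 in pool 40. Both were lower in the 41-week pools. Of the 25, 20 were lower in pool 41 than in pool 40. The median was -0.52 without pool 42 and -0.25 without pool 41.

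Basement membrane genes leaned the other way, with 12 of 14 higher in both 41-week pools and none lower. For this list and the endothelial list below, the backgrounds were 33.7% of all genes higher and 36.7% lower. The median difference of the basement membrane list was 0.37, and 0.19 without pool 42. The laminin chain Lama5 read 2239.6 and 1801 in pools 41 and 42, against 1392 in pool 40. Nid2, a nidogen that links laminin to collagen IV, read 961 and 766 in pools 41 and 42, against 476 in pool 40. Of 18 endothelial genes past the filter 12 were higher in both 41-week pools and 1 lower, with a median difference of 0.28, and 0.35 without pool 42. The water channel Aqp1 had the widest range in that list, at 7673 and 3999 in pools 41 and 42, against 3315 in pool 40.

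As deposited, 33.7% of all genes were higher in both 41-week pools and 36.7% were lower in both. Of 22 white adipocyte genes, 16 were higher in both 41-week pools and 3 lower, with a median difference of 0.26 that was 0.21 without pool 42. After quantile normalization 12 were higher and 4 lower, with a median of 0.14. Lep was the only one with a mean difference of at least 2-fold upward in both pools, where 1.1% of all genes had one. Fatty acid synthesis genes had a median difference of 0.22 that came from pool 42, since it was -0.01 without that pool. Of 66 subunits of oxidative phosphorylation past the filter, 40 were higher in both 41-week pools and 11 lower, with a median difference of 0.14 that was 0.09 without pool 42 and 0.21 without pool 41. The luminal list, with 8 higher and 7 lower of 19, had a median of -0.06, which became 0.07 without pool 42. Its counts lay near the shares of all genes.

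**Figure D5:**
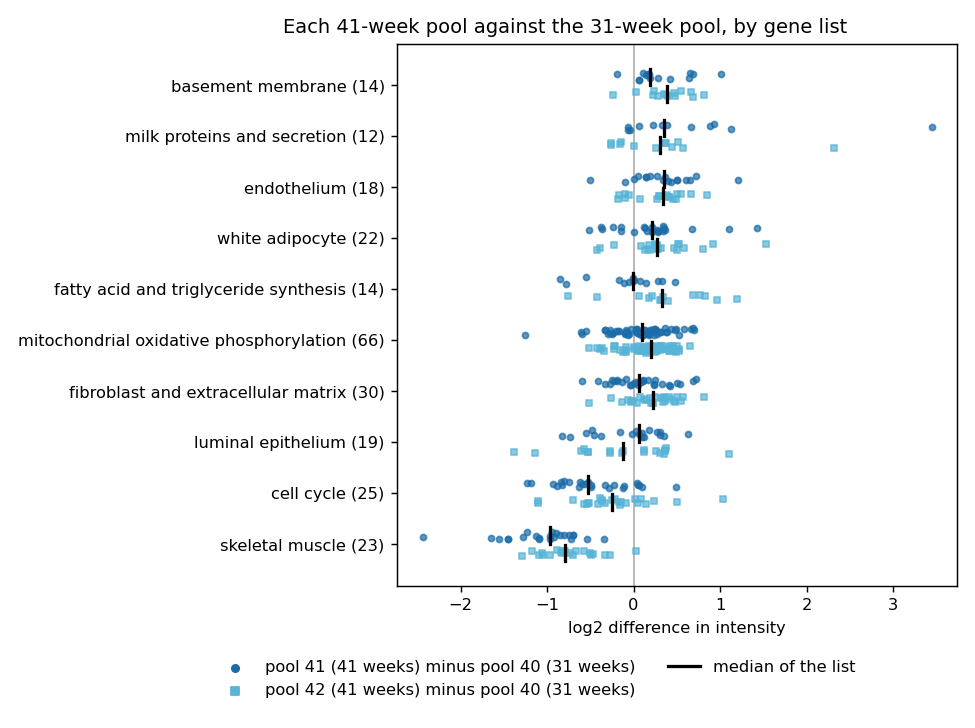
Log2 difference in intensity of pool 41 and of pool 42 from pool 40 for each gene past the filter in 10 lists, with 1 point per gene and pool and the median of each list as a black bar. Skeletal muscle genes lie to the left of 0 for both pools, except Tnni1 in pool 42, with medians of -0.96 and -0.80, while basement membrane and endothelial medians lie to the right, and the medians of fatty acid synthesis genes are -0.01 for pool 41 and 0.33 for pool 42.

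Xist, the noncoding RNA of the inactive X chromosome, read 663 and 527 in pools 41 and 42, against 973 in pool 40. Of Y-linked genes, Eif2s3y, Kdm5d and Uty were under the floor in every pool and Sry read 216, 67.7 and 220.3 in pools 41, 42 and 40.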

How the data were processed

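RNA of 3 pools of wild-type mammary gland was hybridised to 1-colour oligonucleotide arrays. As deposited by the authors, every probe set has a linear intensity on every array; the mean after trimming 2% of values from each end was 1500.84 to 1500.9 on the 3 arrays, so these intensities were taken as already scaled and were not normalized again. The software, background correction and detection calls are not given in the sources used here, and no depth applies to arrays, whose number limits the precision.

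Of 12488 probe sets, 66 controls were left out. The platform annotation named 1 gene for 10833, several for 396 and none for 1193, and 10817 symbols were updated by gene number to RefSeq (GRCm38.p6). The probe set with the highest geometric mean stood for a gene. Intensities under 101.42, a floor set over all 14 arrays, were set to it, and log2 was taken. Comparisons used the 7453 probe sets (5726 genes) whose mean log2 intensity lay above the 40th percentile, an intensity of 352.3.

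The 41-week pools were set against the 31-week pool with limma 3.58.1 under R 4.3.3 (lmFit, eBayes with an intensity trend, 1 residual and 9.13 prior degrees of freedom), two-sided, with Benjamini-Hochberg adjustment over 7453 probe sets. In 1 simulated data set, with normal noise at the fitted spread of each probe set, it made false calls at more than its nominal rate. The pools are separate pools of mice, but whether RNA was extracted separately is not stated, and p-values therefore cover no more than the spread among these arrays, which may be technical.

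Named genes were the 30 brightest, the defining markers and up to 4 brightest members of 35 lists, the 10 largest differences per direction between ages and between pools 41 and 42, and the 10 largest and 5 smallest ranges. Genes outside this rule (the called genes Lep and Igkv6-14, and Aqp7, Btn1a1, Ciita, Csn1s2b, Fabp4, Glycam1, H2-DMb1, Ighd, Ighg3, Igkv4-70, Lama5, Ldb3, Mki67, Myl3, Nid2, Plin2, Ppargc1a, Prox1, Retn, Slc34a2, Tnnc2, Tnni1, Top2a, Uty and Xdh) were chosen after their values were seen. The members and lists were chosen with earlier results of these data known. Alternatives were the floor, the filter, quantile normalization, the intensity trend, the median over probe sets, the spread of all 14 arrays and leaving out each pool.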

Additional observations from a re-analysis of the deposited data

How the results depend on the processing

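The 30 brightest genes kept 30 members under quantile normalization, 28 by the lowest pool, 28 to 29 without any 1 pool, and 23 when the median of a gene's probe sets stood for it. The last setting moved Gnas to 180.5 and Rps4x to 150.4, far below the 63241 and 59554 of their brightest probe sets. The 735 probe sets with a 2-fold range became 2233 with no filter, 248 with the filter at the 60th percentile and 321 to 399 without 1 pool, where fewer values enter each range. The 11 probe sets called between ages were 11 with the floor at the 10th percentile and 3 with it at the 30th. With no filter there were 269, all lower in the 41-week pools, and none of the 11 was among them. Any probe set under the floor in both 41-week pools has no gap between them, and can only be lower there or equal. The fit takes its errors partly from that gap, so the 269 are not read as a fall with age. How many of them were under the floor in both pools was not tested. The probe sets called were 0 with the filter at the 60th percentile, quantile normalization, no intensity trend, or the spread of all 14 arrays. In these settings 386, 535, 423 and 112 probe sets had an unadjusted limma p under 0.05, and the cause was not tested. Without pool 41 or 42 there were also 0 (146 and 69 unadjusted), but those fits have 1 pool against 1 and take the spread from the other arrays, so samples and spread change together.

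Median differences of lists, 41-week minus 31-week, moved as follows. Without pool 41 or 42 they ranged from -0.96 to -0.80 for skeletal muscle, -0.52 to -0.25 for the cell cycle, 0.19 to 0.39 for basement membrane, 0.34 to 0.35 for endothelium, -0.12 to 0.07 for luminal epithelium and -0.01 to 0.33 for fatty acid synthesis. Without pool 42 these last 2 changed sign, to 0.068 and -0.0077. Quantile normalization gave 0.32 for endothelium and 0.14 for white adipocytes. The median over probe sets gave 0.31 for basement membrane and -0.12 for luminal epithelium. The cause was not tested. Of the other lists recomputed, without pool 42 and without pool 41 the median was 0.06 and 0.23 for fibroblasts and matrix, 0.09 and 0.21 for oxidative phosphorylation, 0.36 and 0.31 for milk genes, and 0.21 and 0.27 for white adipocytes. No further list was recomputed with the median over probe sets or with another floor. Leaving out pool 40 leaves no difference between ages. No paired analysis was possible because each of the 3 pools was a separate group of mice on 1 array. Probe sets near the floor of 101.42 limit what can be said of dim genes.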

Other observations

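Immunoglobulin segments and chains, gathered by name after their values were seen, differed between the pools as a group. Of 21 such genes past the filter, 17 were higher in both 41-week pools and 1 was lower, where 33.7% and 36.7% of all genes were. Their median difference was 0.76 on the log2 scale for pool 41 minus pool 40 and 0.96 for pool 42 minus pool 40, and 0.01 for pool 42 minus pool 41. After quantile normalization these medians were 0.76, 0.88 and -0.01. Most of these probe sets can detect several members of a family, so they are not separate measurements. The kappa segment Igkv4-70 read 3919 and 5124 in pools 41 and 42, against 2061 in pool 40, and the gamma-3 heavy chain Ighg3 read 1756 and 1244 in pools 41 and 42, against 607 in pool 40. Jchain, the chain that joins polymeric immunoglobulins, read 5528 and 5235 in pools 41 and 42, against 4601 in pool 40. Ighd, the heavy chain of naive B cells, read 421 and 821 in pools 41 and 42, against 789 in pool 40, and so overlapped.

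MHC class II genes differed between the 2 pools of 41 weeks. Of 9 past the filter 7 were highest in pool 41, where 29.6% of all genes were, and none in pool 42. The median difference of pool 42 minus pool 41 was -0.44, and -0.46 after quantile normalization. H2-DMb1, which helps to load peptides, read 2489 and 1316 in pools 41 and 42, against 1579.6 in pool 40, and Ciita, the master regulator of these genes, read 653 and 359 in pools 41 and 42, against 388 in pool 40. Of 8 pericyte and vascular smooth muscle genes past the filter, 7 were highest in pool 41. The markers Cd74 and H2-Aa differed little, with 30916 and 30316 for Cd74 in pools 41 and 42, against 25430 in pool 40.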
